A study of Mus musculus with 39 samples.

Results

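The genes described here are the core regulators of the cell cycle: the A, B, D and E cyclins, the cyclin-dependent kinases Cdk1 to Cdk9 that the annotation holds, their Cdkn inhibitors, the E2F factors and pocket proteins, the Cdc25 phosphatases, the MCM proteins and the Aurora, Polo-like and Bub1 kinases. They were defined by gene symbol, in a rule set with earlier results of these data known. Of the 21938 protein-coding genes on the nuclear chromosomes of mm10, 57 carried such a symbol. Binding of RBPJ and NOTCH was mapped in embryonic mouse cortex by targeted DamID (TaDa), in which a protein of interest carries the bacterial Dam methylase and leaves a methyl mark at GATC sites around its binding places. Wild-type MF1 embryos were electroporated in utero at E13.5 and dissected at E14.5. The Hes5 promoter on the plasmid directed the fusion to radial glial cells (RGCs), the neural stem cells of the cortex, and the Tα1 promoter directed it to intermediate progenitor cells (IPCs), their neurogenic progeny. Human RBPJ1 was profiled in 3 RGC and 3 IPC samples. Mouse Notch1 was profiled as its intracellular domain (NICD) in 4 IPC samples, and in RGCs as NICD in 2 samples and as NdECD, which keeps the transmembrane domain, in 2. Dam alone was expressed in 5 RGC samples, 4 of which the labels tie to the fusion profiles, and in 4 IPC samples, and the RBPJ and Notch lists of a cell type share these controls. Cell type was set by the plasmid promoter in microdissected cortex without sorting, NICD is active without ligand, and Notch in IPCs was ectopic. No marker of either cell type can be checked in lists of binding peaks.

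The 4 deposited peak lists are pooled over samples and hold positions only, so neither the spread between replicates nor the sequencing depth can be read from them. No test was run for this reason. The Wilson 95% interval beside a share reflects the number of genes or peaks counted, and not the variation between embryos. Overlapping peaks of the 4 lists form 20809 nuclear consensus peaks, each with 1 of 8 k-means cluster numbers. A peak went to whichever protein-coding gene had an annotated transcription start site closest to its edge, and 56 consensus peaks fell to the members. In the separate lists, 43 of 14097 RGC RBPJ peaks, 4 of 3702 RGC Notch peaks, 12 of 5497 IPC RBPJ peaks and 9 of 2157 IPC Notch peaks did so.

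Progression through the cell cycle rests on cyclin-dependent kinases that are switched on by cyclins and held back by Cdkn inhibitors. D cyclins with Cdk4 and Cdk6 phosphorylate the pocket proteins Rb1, Rbl1 and Rbl2, which frees E2F factors to transcribe genes for DNA replication, and B cyclins with Cdk1 then drive mitosis. In the developing cortex RGCs divide at the ventricular surface, and the length of their G1 phase and the choice between another division and exit from the cycle are tied to neurogenesis. When Notch is cleaved, NICD enters the nucleus and joins the DNA-binding protein RBPJ, whose consensus site holds the word TTCCCA.

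Start-site peaks called in 2 or more lists are shown first, because the cell cycle genes under them recur below. That of Cdc25c is left out, since it held no TTCCCA word. Each line gives the TTCCCA word nearest to the centre of the peak, or a longer match to TTCCCACG or TTCCCACA where the peak held one, with the word in capitals. The sequences are from mm10. The Cdk6 sequence lies at chr5:3343278-3343337 on the plus strand in an intron of Cdk6, the E2f5 sequence at chr3:14577232-14577289 (plus, intergenic) and the E2f7 sequence at chr10:110743797-110743854 (minus, intergenic). The Plk3 sequence lies at chr4:117133316-117133375 (plus, an intron of Plk3), the E2f8 sequence at chr7:48878971-48879000 (plus, an untranslated or non-coding exon of E2f8) and the Rb1 sequence at chr14:73237964-73237993 (minus, an intron of Rb1 and an exon of Lpar6).
Cdk6: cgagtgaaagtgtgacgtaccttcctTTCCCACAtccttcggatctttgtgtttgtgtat
E2f5: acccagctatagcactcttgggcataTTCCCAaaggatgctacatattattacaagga
E2f7: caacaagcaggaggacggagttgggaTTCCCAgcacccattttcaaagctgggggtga
Plk3: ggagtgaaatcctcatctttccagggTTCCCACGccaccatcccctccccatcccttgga
E2f8: taatagttaaacTTCCCActtttaacttgg
Rb1: agcaagaaagccTTCCCAgatttgtaatat
These words are exact letter matches in the peak and not mapped binding sites. A word in a shared peak need not lie in each list's own call. The E2f5, E2f7 and Plk3 sequences lay in the RGC RBPJ call alone, and the E2f8 sequence in the RGC Notch call alone. The Cdk6 sequence lay in the RBPJ calls of both cell types. The Cdk6 and Plk3 peaks held an 8-base match, whereas the E2f5, E2f7, E2f8 and Rb1 peaks held only the shorter word.

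Peaks lay on the start sites of cell cycle regulators more often than on those of protein-coding genes at large. By list, the interval of the members lay above the share over all genes for IPC Notch and, in the main setting, only just for RGC RBPJ. It held the share over all genes for RGC Notch and IPC RBPJ. At least 1 consensus peak was assigned to 29 of the 57 members (50.9%, interval 38.3 to 63.4), where 39.7% of all protein-coding genes had one. A consensus peak covered a start site of 22 members (38.6%, 27.1 to 51.6), beside 16.0% of all genes. RBPJ in RGCs had a peak at 25 members (43.9%, 31.8 to 56.7), beside 31.7% of all genes. Notch in RGCs had one at 4 members (7.02%, 2.76 to 16.7), beside 11.7% of all genes. In IPCs, RBPJ had a peak at 9 members (15.8%, 8.54 to 27.4), beside 16.4% of all genes. Notch in IPCs also had one at 9 members (15.8%, 8.54 to 27.4), beside 6.97% of all genes. For RGC RBPJ the lower end of the interval lay only just above the share over all genes, and for any consensus peak the interval held it. With 5′ ends only as start sites, RGC RBPJ had a peak at 22 members (38.6%, 27.1 to 51.6), beside 32.2% of all genes, so the interval held that share. With start sites of protein-coding transcripts only it had one at 23 members, beside 31.8% of all genes.

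**Figure D1:**
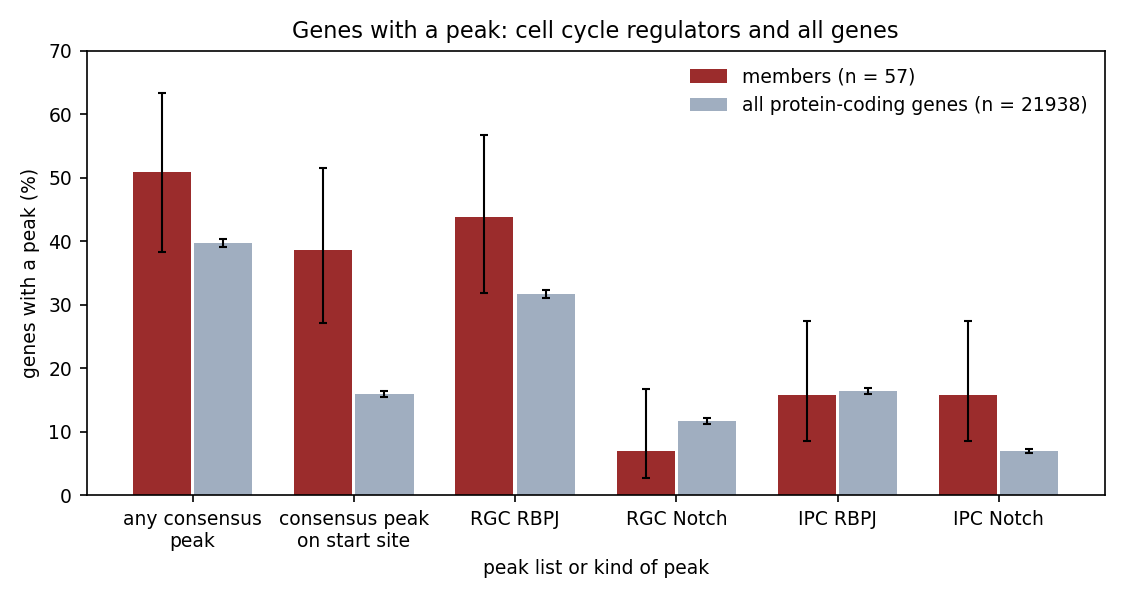
Share of genes (%) with a peak, for the 57 cell cycle regulators and all 21938 protein-coding genes, by kind of peak or list; bars start at 0 and lines are Wilson 95% intervals. The members stand above all genes for start-site peaks (38.6% beside 16.0%) and IPC Notch (15.8% beside 6.97%), and below them for RGC Notch (7.02% beside 11.7%).

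A peak of either protein was found in both cell types at 13 members (22.8% beside 13.8% of all genes), namely Aurka, Aurkb, Ccna1, Ccnd2, Ccne2, Cdc25c, Cdk6, Cdkn1b, E2f5, E2f7, E2f8, Plk2 and Plk3. Peaks in RGCs alone were found at another 13 members (22.8% beside 20.5%), and peaks in IPCs alone at Ccnd3, E2f2, Mcm3 and Plk4 (7.02% beside 5.45%). E2f7 was the member with a peak in each of the 4 lists. Most members with a consensus peak had few: 17 had 1, 7 had 2, 3 had 3 or 4, and Ccnd2 and Cdk6 had 5 or more.

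**Figure D2:**
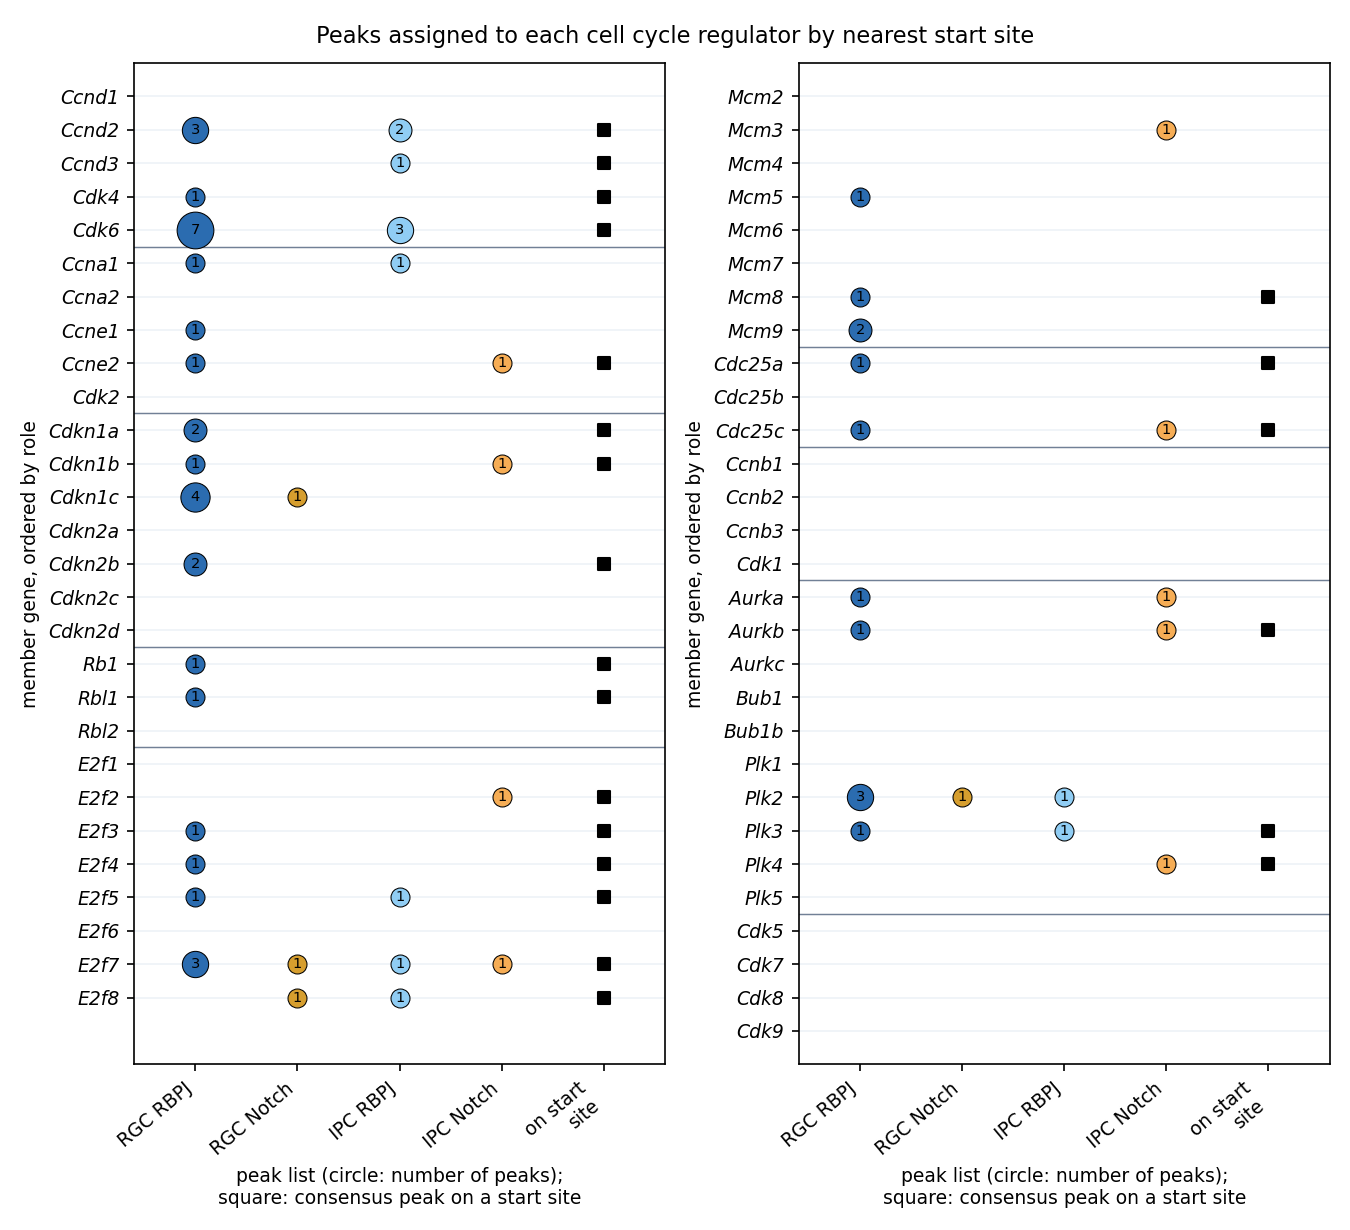
Number of peaks (circles) of each list assigned to each of the 57 members, ordered by role from G1 cyclins to other kinases, with lines between roles; a square marks a consensus peak on a start site. The RGC RBPJ column is the fullest, with up to 7 peaks at Cdk6, the RGC Notch column holds only Cdkn1c, E2f7, E2f8 and Plk2, and the B cyclins with Cdk1 are empty. Of all protein-coding genes, 60.3% had no consensus peak.

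Among the G1 cyclins and their kinases, 4 of 5 had a consensus peak, where 39.7% of all genes had one. They had 15 peaks in all, and all 15 were RBPJ peaks. Most consensus peaks are RBPJ peaks in the whole genome as well. Of all consensus peaks, 67.6% were called for RBPJ in RGCs and 26.2% for RBPJ in IPCs, beside 17.7% and 10.1% for Notch. Cdk6, the kinase that D cyclins activate in G1, had 8 consensus peaks. Of these, 7 lay over the gene itself, and the RGC RBPJ list held 7 peaks, the IPC RBPJ list 3 and both Notch lists 0. The peak on its 5′ end, at chr5:3340682-3346747, was 6066 bp wide, the widest of any member, belonged to cluster 7 and was called for RBPJ in both cell types. A further peak at chr5:3393356-3396723 in an intron, 51.9 kb from the 5′ end and also in cluster 7, was called for RBPJ in both cell types too. The intronic peak at chr5:3404675-3406508 was called for RBPJ in IPCs alone (cluster 3), and the remaining 5 were RGC RBPJ peaks of clusters 4 and 5.

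Ccnd2, a D cyclin of cycling cortical progenitors, had 5 consensus peaks, whose calls differed by cell type and position. The IPC RBPJ peaks were the nearest to the 5′ end: chr6:127151366-127153108 covered it and chr6:127154305-127156232 lay 2.11 kb upstream, both in cluster 6. The RGC RBPJ peaks lay in an intron 18 kb from the 5′ end (chr6:127130346-127134233, cluster 5) and 113 and 121 kb upstream (clusters 7 and 8). No Ccnd2 peak was called in both cell types, and only 11.5% of all consensus peaks were. Clusters 6 and 7 group peaks with intensity in both cell types, so at the Ccnd2 peaks in them the difference is one of calls. Clusters 5 and 8 are those that the paper describes as RBPJ alone in RGCs. At the Ccnd2 peaks in clusters 5 and 8, the cluster as well as the call is that of RGCs. Ccnd3, another D cyclin, had 1 peak, at chr17:47592961-47594201 (IPC RBPJ, cluster 7), on an alternative start site 87.9 kb from the 5′ end of the gene. Cdk4, the other kinase of the D cyclins, had 1 RGC RBPJ peak over its 5′ end, at chr10:127062571-127065651 (cluster 1). Ccnd1 had no peak: the nearest consensus peak, an IPC Notch peak, lay 23.0 kb from its start sites.

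**Figure D3:**
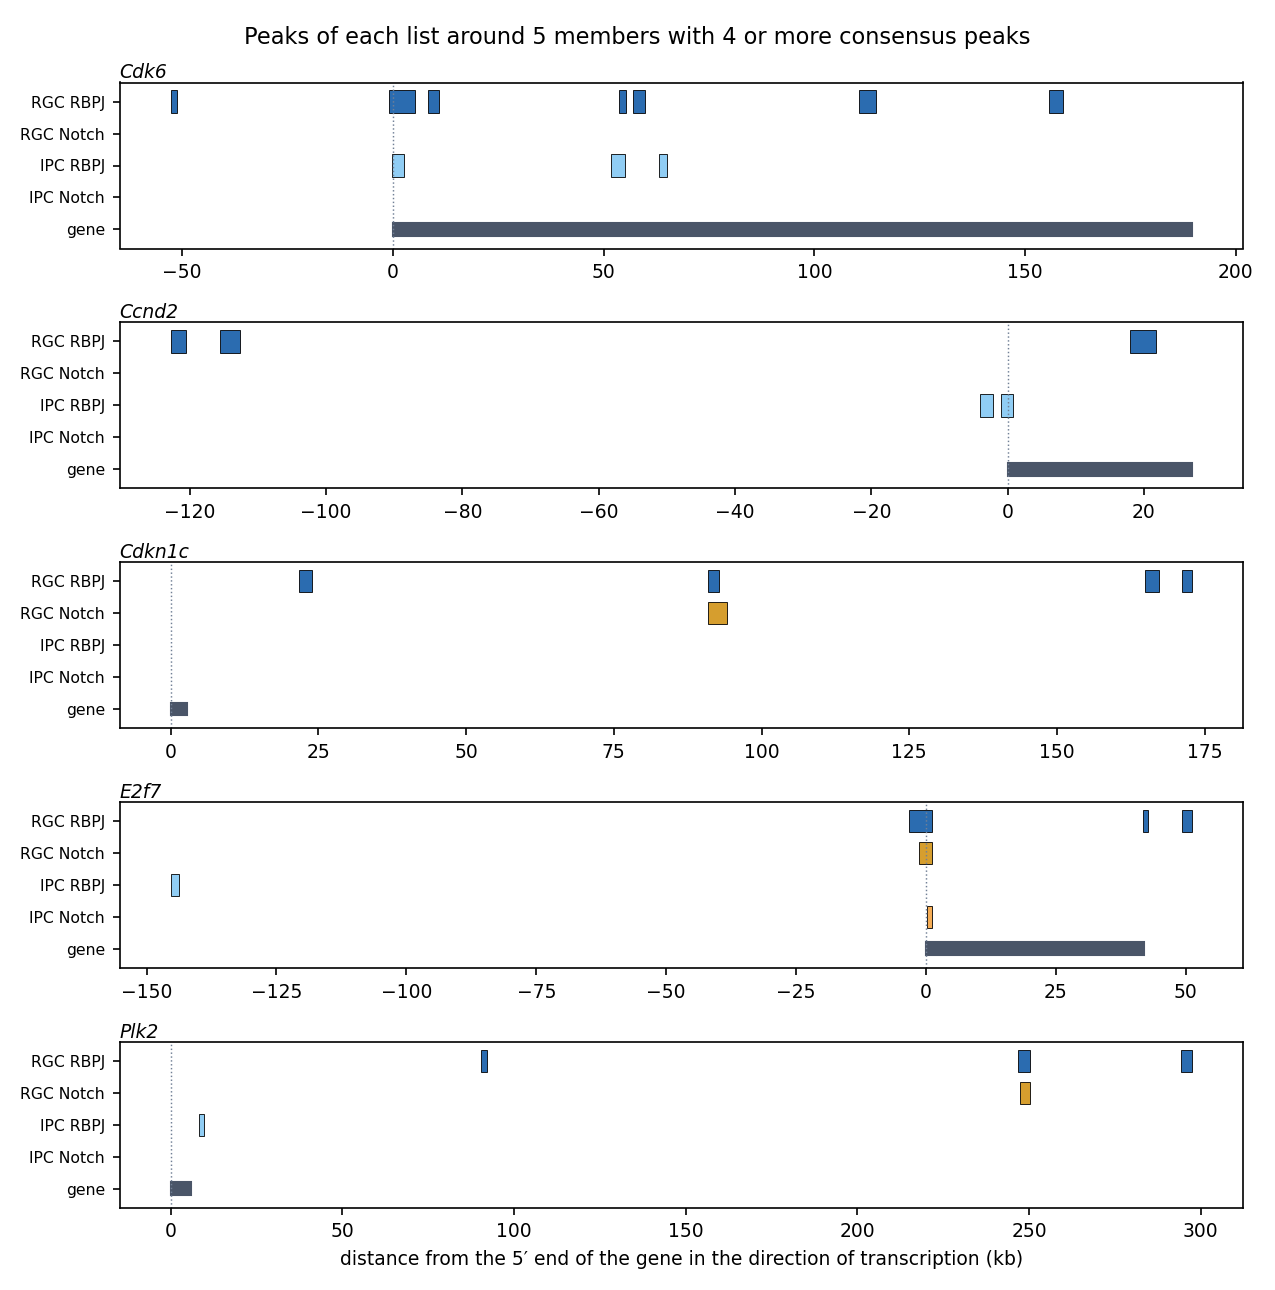
Peaks of each list around Cdk6, Ccnd2, Cdkn1c, E2f7 and Plk2 by distance from the 5′ end of the gene (kb, in the direction of transcription), with the gene as a dark bar; peaks too narrow to see are drawn at a minimum width. Cdk6 has RBPJ peaks along the gene in both cell types, E2f7 has RGC RBPJ and RGC Notch peaks over its 5′ end and an IPC Notch peak just inside the gene, and the peaks of Cdkn1c and Plk2 lie downstream of the gene.

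In the group that drives entry into S phase, 3 of 5 had a peak, beside 39.7% of all genes. Ccne2, an E cyclin that activates Cdk2, had an RGC RBPJ peak on a start site 0.746 kb from its 5′ end (chr4:11192097-11193334, cluster 2) and an IPC Notch peak 1.09 kb upstream (chr4:11189596-11190256, cluster 6). Ccne1, the other E cyclin, had 1 RGC RBPJ peak in an intron (chr7:38102899-38104004). Ccna1, the A cyclin known from the germ line, had an IPC RBPJ peak 4.82 kb and an RGC RBPJ peak 49.2 kb from its nearest start site, both downstream. Ccna2, the A cyclin of most dividing cells, and Cdk2 had none.

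Of the 7 CDK inhibitors, 4 had a peak and 3 had one on a start site, beside 39.7% and 16.0% of all genes. Cdkn1c (p57), an imprinted inhibitor that favours cell cycle exit in the cortex, had 4 peaks, all called for RBPJ in RGCs and none on a start site. They lay 19.9, 89.2, 163 and 169 kb from the nearest start site, downstream, and 3 of them lay in introns of the neighbouring gene Kcnq1. The peak at chr7:143366840-143370067 (cluster 1) was also called for Notch in RGCs. Cdkn1a (p21), the p53-induced inhibitor, had RGC RBPJ peaks on a start site 0.955 kb from its 5′ end (chr17:29091931-29095219) and 8.84 kb upstream, both in cluster 7. Cdkn1b (p27), which restrains Cdk2, had an RGC RBPJ peak over its 5′ end (chr6:134916749-134920978, cluster 7) and an IPC Notch peak 7.57 kb downstream (chr6:134928081-134929238, cluster 6). Cdkn2b (p15), an inhibitor of Cdk4 and Cdk6, had RGC RBPJ peaks on its start site (chr4:89310712-89311914, cluster 7) and 48.8 kb upstream. Cdkn2a, Cdkn2c and Cdkn2d had none by this assignment, although an RGC RBPJ peak (chr9:21287535-21288990) overlapped the Cdkn2d gene 2.16 kb from its start sites and was assigned to Kri1.

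The pocket proteins bind E2F factors and hold their targets in check. Rbl1 (p107) had an RGC RBPJ peak over its 5′ end (chr2:157201283-157206399, cluster 4). Rb1 had the peak at chr14:73236640-73240443 (cluster 7), on an alternative start site 85.4 kb from its 5′ end, inside an intron that holds the gene Lpar6, and the peak is shared with Lpar6. RGC RBPJ, IPC RBPJ and IPC Notch were all called in it, but only the RGC RBPJ peak itself reached a start site of Rb1, so the calls in IPCs were nearer to Lpar6. Rbl2 (p130) had none.

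Of the 8 E2F factors, 6 had a peak, and each of these 6 had a peak on its 5′ end. Over all 21938 protein-coding genes, 39.7% had a consensus peak and 2621 had the 5′ end in one. E2f7, a repressor that acts on E2F targets in S phase, had 4 consensus peaks. That on its 5′ end, at chr10:110742105-110746650 (cluster 6), was called for RBPJ and Notch in RGCs and for Notch in IPCs. Relative to the 5′ end, the RGC RBPJ call ran from -3.33 to 1.18 kb and the RGC Notch call from -1.39 to 1.18 kb. The IPC Notch call ran from 0.127 to 1.21 kb, so it covered an alternative start site and not the 5′ end itself. The IPC RBPJ call of E2f7 lay elsewhere, 144 kb upstream (chr10:110600073-110601607, cluster 3), and 2 further RGC RBPJ peaks lay 42.0 and 49.3 kb from the 5′ end, past the end of the gene. The promoter under the shared peak is shown because E2f7 was the member with most lists. The 250 bases before the 5′ end, chr10:110745189-110745438 on the plus strand of mm10, had a GC content of 79.2%, 0 TTCCCA words, 0 GATC sites and 1 match to an E2F word, in capitals, that began at position -198 from the 5′ end.
E2f7 promoter: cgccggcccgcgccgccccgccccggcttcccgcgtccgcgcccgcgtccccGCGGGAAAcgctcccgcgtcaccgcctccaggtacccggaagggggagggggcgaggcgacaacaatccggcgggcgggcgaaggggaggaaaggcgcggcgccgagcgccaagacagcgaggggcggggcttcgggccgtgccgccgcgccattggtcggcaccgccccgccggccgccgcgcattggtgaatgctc
The peak as a whole held 19 GATC sites and 5 TTCCCA words.

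E2f8, the other repressor of this type, had 1 peak over its 5′ end (chr7:48878240-48883374, cluster 4) that came from the RGC Notch and IPC RBPJ lists and not from the RGC RBPJ list. The IPC RBPJ call was 615 bp wide and lay 1.80 to 2.41 kb inside the gene. E2f5, an E2F that works with Rbl1 and Rbl2, had a peak called for RBPJ in both cell types (chr3:14576607-14579666, cluster 5). E2f3, an activator in progenitors, had an RGC RBPJ peak (chr13:29982999-29987177, cluster 2), and so did E2f4, a repressor of quiescent cells (chr8:105296481-105298756, cluster 5). E2f2, another activator, had an IPC Notch peak and no other (chr4:136171386-136172588, cluster 6). E2f1 and E2f6 had none.

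The MCM proteins form the helicase that is loaded at replication origins, and 4 of 8 had a peak, beside 39.7% of all genes. Among the core subunits Mcm2 to Mcm7, Mcm5 had an RGC RBPJ peak in an intron (chr8:75116433-75119179), Mcm3 had an IPC Notch peak 3.06 kb upstream (chr1:20823376-20825076, cluster 6), and the other 4 had none. Mcm8, which with Mcm9 acts in DNA repair, had an RGC RBPJ peak over its 5′ end (chr2:132814788-132816477, cluster 8), where the gene Trmt6 also starts. Mcm9 had 2 RGC RBPJ peaks, 47.7 and 80.6 kb from its nearest start site.

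The Cdc25 phosphatases remove the inhibitory phosphates of CDKs. Cdc25c had a peak over its 5′ end (chr18:34749797-34752242, cluster 4) that came from the RGC RBPJ and IPC Notch lists. Cdc25a had an RGC RBPJ peak on a start site 0.612 kb from its 5′ end (chr9:109876191-109878427, cluster 4), and Cdc25b had none.

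B cyclins with Cdk1 drive entry into mitosis, and the Aurora and Polo-like kinases act on the centrosome and spindle. Ccnb1, Ccnb2, Ccnb3 and Cdk1 had no peak in any list, and 60.3% of all protein-coding genes had no consensus peak either. Their nearest consensus peaks lay 74.7, 137, 153 and 146 kb away, in the order Ccnb1, Ccnb2, Ccnb3 and Cdk1. Of the 10 Aurora, Polo-like and Bub1 kinases, 4 had a consensus peak, a share near the 39.7% of all genes. Aurkb, a kinase of the chromosomal passenger complex, had an RGC RBPJ peak over its 5′ end (chr11:69044834-69046592, cluster 5) and an IPC Notch peak 3.79 kb upstream (chr11:69040964-69041856, cluster 6). Plk4, which starts centriole duplication, had an IPC Notch peak on its 5′ end (chr3:40799317-40800563, cluster 6). Plk3, a stress-responsive kinase, had a peak on its 5′ end called for RBPJ in both cell types (chr4:117131223-117135019, cluster 5).

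Plk2, a Polo-like kinase active in G1 and in neurons, had 4 consensus peaks and none on a start site. An IPC RBPJ peak lay 5.62 kb downstream (chr13:110403418-110404582, cluster 3). The RGC peaks lay 87.6, 244 and 291 kb downstream, and that at chr13:110641934-110645160 (cluster 4) was called for both RBPJ and Notch. Plk2 had 450.3 kb of sequence nearer to its start sites than to those of other genes, and whether these distant peaks act on it was not tested. Aurka, the kinase of the spindle poles, had 1 RGC RBPJ and 1 IPC Notch peak by the edges of those peaks, 6.24 and 6.21 kb from its start site, but the consensus peak that joins them with an RGC Notch peak (chr2:172351396-172356926, cluster 6) reached nearer to Fam210b and was not counted here. Aurkc, Bub1, Bub1b, Plk1 and Plk5 had none.

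Cdk5, active in neurons, and Cdk7, Cdk8 and Cdk9, which act on transcription, had no peak assigned. At Cdk5 an IPC Notch peak of cluster 6 (chr5:24423715-24424301) lay only 0.185 kb from the start site and went to Slc4a2, whose start site is nearer still. Over the 28 members with no consensus peak of their own, the median distance to the nearest consensus peak was 51.6 kb, with a range from 0.185 to 218 kb. It lay within 10 kb at 3 of them, Aurka, Cdk5 and Cdkn2d, and within 50 kb at 14.

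The peaks of the members lay closer to start sites than consensus peaks in general. Of the 56 peaks, 22 covered a start site (39.3%, 27.6 to 52.4), beside 16.6% of all consensus peaks. The bands from 5 to 50 kb and beyond 50 kb held 13 peaks each (23.2%, 14.1 to 35.8), beside 34.5% of all peaks in each band. The median distance to the start site was 4306 bp, beside 21051 bp for all peaks. Widths were alike, with medians of 2218 and 1890 bp. When only the 5′ end of each gene counted as a start site, the share of peaks on it was 32.7% for the members and 11.5% for all peaks.

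**Figure D4:**
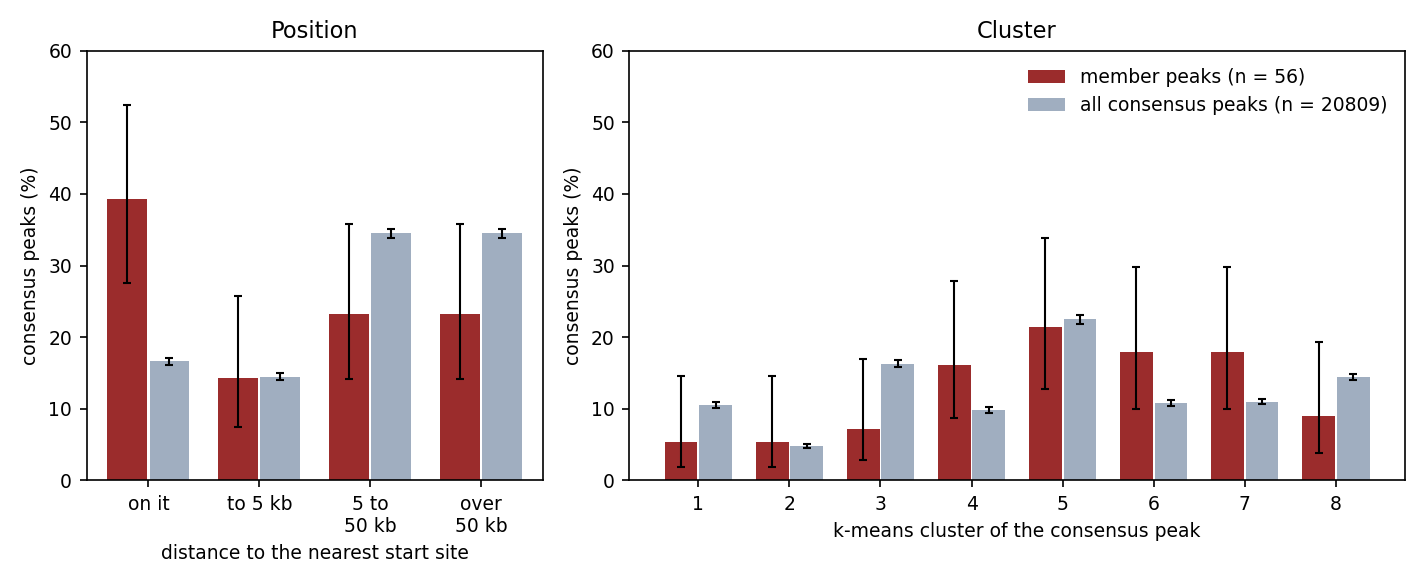
Consensus peaks (%) of the members (n = 56) and of all genes (n = 20809) by distance to the nearest start site (left) and by k-means cluster (right), with Wilson 95% intervals. The members stand higher on start sites (39.3% beside 16.6%), and in each of the 8 clusters the interval of the members holds the share over all genes.

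The k-means clusters group consensus peaks by average binding intensity in the 4 conditions, so they draw on signal below the calling threshold. Clusters 2, 4, 6 and 7 are those with intensity of both proteins, and they held 32 of the 56 member peaks (57.1%, 44.1 to 69.2), beside 36.3% of all. Cluster 6, with both proteins in both cell types, held 10 (17.9%, 10 to 29.8), beside 10.8%. Cluster 7 held another 10, beside 11%, and cluster 4, with both proteins in RGCs, held 9 (16.1%, 8.69 to 27.8), beside 9.79%. Cluster 3, with RBPJ in IPCs, held 4 (7.14%, 2.81 to 17.0), beside 16.3%. For each of these single clusters the interval of the members held the share over all peaks. Start-site peaks are more often in clusters 2, 4, 6 and 7 in the whole genome as well. Among peaks on start sites, clusters 2, 4, 6 and 7 held 16 of 22 for the members (72.7%, 51.8 to 86.8) and 51.2% over all genes, with the share over all genes just below the interval of the members. Clusters and calls did not always match: of the 3 member peaks in cluster 1, which holds Notch intensity alone in RGCs, those of Cdk4 and Cdkn2b were called for RBPJ in RGCs and not for Notch.

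By calls rather than intensities, 10 member peaks were called in 2 or more lists (17.9%, 10 to 29.8), beside 17.1% of all. Lists of different cell types, which have separate controls, met at 8 member consensus peaks (14.3%, 7.42 to 25.7), beside 11.5% of all. All but 1 of these 8, the intronic peak of Cdk6, lay on a start site: Cdc25c, Cdk6, E2f5, E2f7, E2f8, Plk3 and Rb1. Over all genes, 16.7% of start-site peaks were called in both cell types, beside 31.8% (16.4 to 52.7) of the 22 of the members.

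The share of member peaks lay below that of all consensus peaks for Notch in RGCs and above it, though within the counting interval, for Notch in IPCs. The RGC Notch list reached 4 member peaks (7.14%, 2.81 to 17.0), at Cdkn1c, E2f7, E2f8 and Plk2, beside 17.7% of all consensus peaks. No member peak was called for Notch in RGCs alone, where 9% of all consensus peaks were, and 0 of 56 allows a share of up to 6.42%. The IPC Notch list reached 9 member consensus peaks, including that shared by Rb1 and Lpar6 (16.1%, 8.69 to 27.8), beside 10.1%. Of these, 6 were called for Notch in IPCs alone (10.7%, 5 to 21.5), beside 3.55%: the peaks assigned to Aurkb, Ccne2, Cdkn1b, E2f2, Mcm3 and Plk4. All 6 were in cluster 6, which held 73.9% of such peaks over all genes.

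By the edges of the IPC Notch peaks themselves, which leave out Rb1 and take in Aurka, 9 were assigned to members. Those of Cdc25c, E2f2, E2f7 and Plk4 covered a start site (4 of 9, 44.4%, 18.9 to 73.3), beside 11.3% of all peaks of that list. Those of Ccne2, Mcm3 and Aurkb lay within 5 kb, and those of Aurka and Cdkn1b farther away. Their median distance was 1095 bp, beside 25684 bp, and their median width 1203 bp, beside 1284 bp. The list is small at these genes, and each of its 9 peaks rests on pooled calls from 4 samples that cannot be separated here.

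The number of peaks a gene collects depends on how much sequence is nearer to it than to its neighbours, called its territory here. The median territory was 41.63 kb for the members and 45.07 kb for all genes. Members with a consensus peak had a median of 50.42 kb and those without 28.09 kb, and over all genes these medians were 97.18 and 31.02 kb. Under 50 kb of territory, 14 of 31 members had a consensus peak (45.2%, 29.2 to 62.2), beside 22.4% of all genes in that band. The same 14 of 31 had one on a start site (45.2%), beside 12.5% of all genes in the band. From 50 to 100 kb the shares were 36.4% (15.2 to 64.6) and 42.6%, and from 100 to 200 kb 66.7% (39.1 to 86.2) and 62.7%. For start-site peaks the shares were 9.09% and 15.4% from 50 to 100 kb and 41.7% and 20% from 100 to 200 kb. For any consensus peak the interval of the members lay above the share over all genes only in the band under 50 kb. An IPC Notch peak was found at 7 of the 31 members under 50 kb (22.6%), beside 1.93% of all genes in that band. From 50 to 100 kb it was found at 1 of 11 (9.09% beside 4.83%), and from 100 to 200 kb at 0 of 12, beside 11.1% of all genes. Of the 3 members with more than 200 kb, E2f7 had one.

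**Figure D5:**
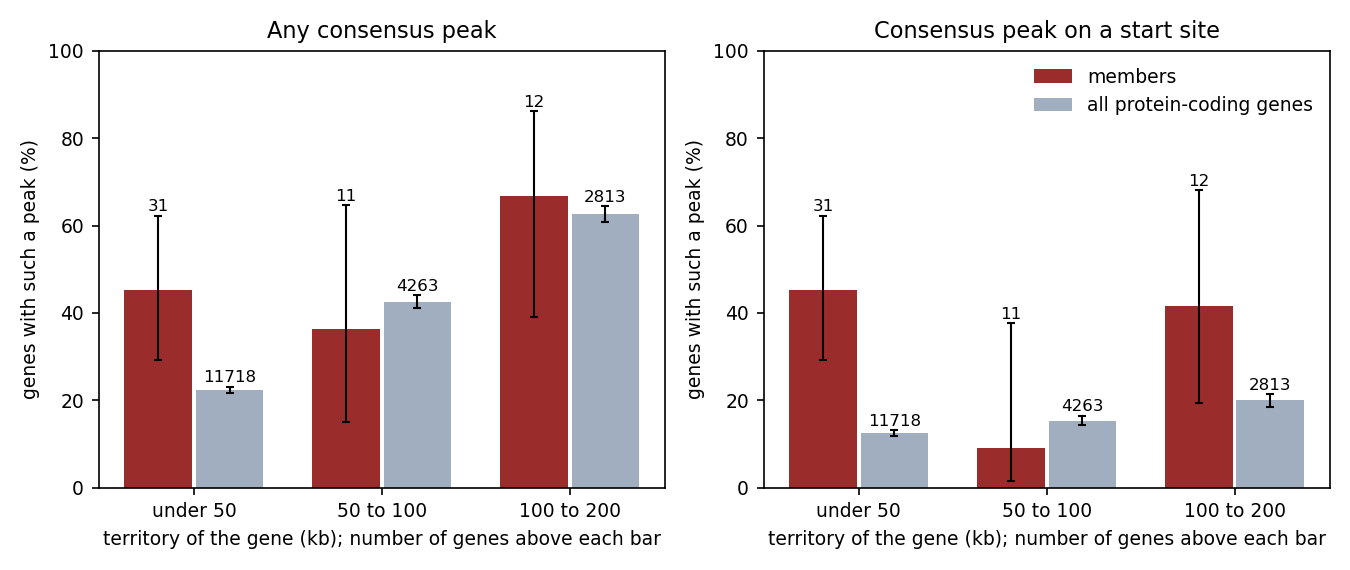
Share of genes (%) with any consensus peak (left) or a consensus peak on a start site (right) in bands of territory (kb), for members and all protein-coding genes, with Wilson 95% intervals and the number of genes above each bar. Under 50 kb, 45.2% of the 31 members had either kind of peak, beside 22.4% and 12.5% of the 11718 genes; genes over 200 kb, among them 3 members, are not drawn.

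Per length of territory the members held 7.69 peaks per Mb (exact Poisson interval 5.81 to 9.99), beside 7.63 over all genes. This value rests on Cdk6, the first protein-coding gene of chromosome 5, whose territory of 3507 kb takes in the unsequenced end of the chromosome. Without Cdk6 the other 56 members held 12.7 peaks per Mb (9.38 to 16.9). No gene with a wide territory was left out of the value over all genes, so the 7.63 is not a like value for it. With territory and peaks limited to 100 kb from a start site, the values were 14.4 (10.6 to 19.0) for the members and 9.56 for all genes.

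GC content around the 5′ end was spread differently. Below 45% GC within 1 kb of it lay 1 of 57 members (1.75%), with no start-site peak, and 22.2% of all genes, of which 5.02% had one. The median GC content was 54.5% for the members and 51.2% for all genes, and the median number of GATC sites was 6 and 5. In the higher bands of GC content, the share of genes with a start-site peak was 40% beside 13.2% from 45 to 50%, 33.3% beside 18.5% from 50 to 55%, 50% beside 23.3% from 55 to 60% and 33.3% beside 25.1% above 60%. These bands held 10, 21, 16 and 9 members.

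TTCCCA words were no denser under the peaks of the members. They held 161 words in 136.5 kb, or 1.18 per kb, beside 1.166 per kb in all consensus peaks, and 50 of 56 held at least 1 word (89.3%, 78.5 to 95), beside 82.9%. Peaks on start sites held 0.991 per kb for the members and 1.125 for all genes, and 4 of these 22, at Ccnd2, Ccnd3, Cdc25c and E2f2, held no word at all. The densest member peaks were at Mcm8 with 3.55 words per kb, E2f7 upstream with 3.26, and the narrow peak past E2f7 with 4.58, which has only 437 bp. A GATC site was missing in 2 member peaks, the IPC RBPJ peak upstream of E2f7 and that downstream of Plk2, both in cluster 3, and in 9.76% of all consensus peaks. Dam methylates only GATC, and how these peaks came to be called was not tested.

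Promoters of the members were rich in E2F words whether or not a peak covered them. The window ran from 250 bases before to 50 after the 5′ end, and TTTCCCGC, TTTGGCGC and TTTCGCGC were searched on both strands. At least 1 of these lay in 16 of 57 members (28.1%, 18.1 to 40.8) and in 2.30% of all protein-coding genes. Of the 17 members whose 5′ end lay in a consensus peak, 5 held such a word (29.4%, 13.3 to 53.1), and of the 40 others 11 did (27.5%, 16.1 to 42.8). The 5 were E2f2, E2f3, E2f7, Mcm8 and Rbl1. TTCCCA lay in 14 member promoters (24.6%, 15.2 to 37.1) and in 25.3% of all. It was found in 3 of the 17 under a peak (Cdk4, E2f3 and E2f4) and in 11 of the 40 others. The words TTTGAA and TTCGAA of the cell cycle homology region, an element of mitotic genes, lay in 16 members (28.1%, 18.1 to 40.8) and in 18% of all genes. TTTCCCGC and TTCCCA have the letters TTCCC in common.

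Other cell cycle genes were taken from 6 lists, with all 112 found in the annotation. Of these, 62 had a consensus peak (55.4%, 46.1 to 64.2), beside 39.7% of all protein-coding genes. A start-site peak was found at 26.8%, beside 16.0% of all genes. RGC RBPJ had a peak at 43.8% of them, beside 31.7% of all genes, and RGC Notch at 19.6%, beside 11.7%. IPC RBPJ had one at 25.9%, beside 16.4%, and IPC Notch at 11.6%, beside 6.97%. Their median territory was 54.6 kb, larger than that of the members and than the 45.07 kb of all genes. Origin licensing and firing genes had the fewest, with 4 of 19 (21.1%, 8.51 to 43.3) and 0 in the RGC Notch and both IPC lists. The checkpoint and p53 genes had 12 of 15, other cyclins and cyclin-dependent kinases 19 of 26, ubiquitin ligases of the cycle 14 of 25, spindle checkpoint and mitotic exit genes 8 of 14, and DREAM, DP and proliferation factors 5 of 13. The interval lay above the 39.7% of all genes for the checkpoint and p53 genes (54.8 to 93) and the other cyclins and kinases (53.9 to 86.3). For the remaining lists the interval held that share.

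A few genes held many of these peaks, most of them with wide territories. Mycn, which drives growth and division of neural progenitors, had 18 consensus peaks, with peaks in all 4 lists and a start-site peak, in 484 kb of territory. Myc had 13 in 1444 kb, Btg1, which restrains proliferation, 12 in 672 kb, and Cdk14 11 in 615 kb. Ccnh, the cyclin of Cdk7, had 9, Fbxw7, which marks cyclin E for degradation, and Gadd45a, a p53 target, had 6 each, and Gadd45g and Mad2l1, a spindle checkpoint protein, had 5 each. Consensus peaks called in all 4 lists were assigned to Cdk17, Btg1 and Mycn, at 11.4, 218 and 255 kb from their start sites. Of those called in 3 lists, the peaks of Cdc14a, Sesn1 and Mycn covered a start site, and those of Cdk12, Gadd45g, Btg1 and Ccnh lay 18.3, 70.3, 136 and 402 kb away. No member had a peak called in all 4. Peaks called in 3 or more lists were as rare in the whole genome, at 3.88% of all consensus peaks, beside 3.57% (0.985 to 12.1) of the 56 member peaks.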

How the data were processed

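TaDa libraries were analysed from the peak lists that the authors deposited. Reads had been trimmed and aligned to mm10 by the authors, who ran MACS2 in broad mode on every combination of a fusion with a Dam-only sample, applied an FDR limit and retained a peak only if each combination had it. They merged overlapping peaks and clustered their averaged intensities by k-means. The deposited values are positions (bp), a cluster number and a constant score. No values of single samples were used (0 columns), so the depth is unknown, and the other 16 of 39 samples were not analysed here.

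Members were matched by symbol in the GENCODE annotation of GRCm38. Peaks were assigned by nearest protein-coding start site, with ties counted for every gene, an overlap of at least 1 bp counting as on it, and 2 mitochondrial peaks left out. Words were counted on the NCBI RefSeq sequence of GRCm38. Python 3.11.15, numpy 2.4.6, scipy 1.17.1 and matplotlib 3.10.9 were used. Assignment, territory and word counts were tested on simulated data. Alternatives were distance from the midpoint, 5′ ends only, all annotated genes, a limit of 100 kb, widths of at least 1000 bp, coverage of 50%, a longer word and the central 500 bp. Start sites of protein-coding transcripts only, and leaving out Cdk6, were chosen after seeing the data.

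By rule, every member is accounted for, and those with a start-site peak, 3 or more peaks or a peak in 2 or more lists are given with positions. Genes of other lists are named from 5 peaks or a peak in 3 lists. Members, lists and rules were chosen with earlier results of these data known.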

Additional observations from a re-analysis of the deposited data

How the results depend on the processing

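Of 70 values computed under other settings, 62 stayed within 1.5 times the count, or within the 95% interval of the share or density, that the report gives. A count within that limit can still change its comparison with all genes. Members with an RGC RBPJ peak went from 25 to 22 with 5′ ends only, beside 32.2% of all genes. Those with an IPC Notch peak went from 9 to 7 with all annotated genes, and also with widths of at least 1000 bp. The share over all genes in these 2 settings is not given. When all annotated genes competed for the nearest start site, the members kept 37 consensus peaks, the share on a start site was 59.5% (30.2% over all protein-coding genes), the density was 17.49 per Mb of territory (10.4 over all protein-coding genes), and 2 members, E2f7 and E2f8, had an RGC Notch peak. When a list counted only from 50% of the consensus peak, 7.14% of member peaks were called in 2 or more lists. The longer word TTCCCAC occurred at 0.256 per kb. The density was 14.4 per Mb within 100 kb of start sites and 12.7 per Mb without Cdk6. With 5′ ends only, 32.7% of member peaks lay on a start site (11.5% over all), and with start sites of protein-coding transcripts only, a setting chosen after seeing the data like that without Cdk6, 34.5% (14.6%). No paired analysis was possible because the lists are pooled over samples and carry no replicate numbers. A stricter FDR threshold and leaving out replicates were not run, since the lists hold a constant score and no values of single samples.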
